A study of Mus musculus with 20 samples.

Results

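Non-Tfh Tomato+ CD4 T cells, the T-bet-marked cells outside the follicular helper gate, held 1380 stretches of DNase-accessible chromatin with a deposited island in both of their libraries and in none of the 6 libraries of the other 3 sorted groups. These private regions were chosen by the islands themselves, out of 25755 regions made by merging the islands of all 8 DNase libraries, so that their presence and absence is a description and was not tested. They made up 5.36% of all merged regions and covered 2.22 Mb of the mouse genome (build mm9). All 8 libraries came from AS15 tetramer-binding CD4 T cells of the draining lymph node, collected at day 16 from mice given AS15 peptide in CFA, an oil adjuvant with killed mycobacteria.

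Every mouse carried the same alleles on a C57BL/6 background, T-bet-Cre with Rosa26-loxP-STOP-loxP-tdTomato, and the labels set the groups apart by their sorting gate only. The 4 groups were non-Tfh Tomato+ (CXCR5-low PD1-low, Toma+), non-Tfh Tomato- (CXCR5-low PD1-low, Toma-), Tfh Tomato+ (CXCR5-high PD1-high, Toma+) and Tfh Tomato- (CXCR5-high PD1-high, Toma-), with 2 DNase libraries and 2 separate RNA libraries each. Cre driven by T-bet removes a stop cassette for good, so Tomato is kept by a cell and its progeny after T-bet itself has gone, and a Tomato+ sort mixes present with past expression. Whether replicates came from separate animals is not given, nor is the animals' age.

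T-bet, encoded by Tbx21, is the T-box transcription factor that directs T helper 1 (Th1) differentiation and binds at Ifng, the interferon gamma gene, among many others. Open chromatin is cut by DNase I, and clusters of cuts mark promoters, enhancers and other bound elements. Regions that open in a single T cell subset are often distal elements of the genes of that subset. Follicular helper cells (Tfh) follow another program, led by the repressor Bcl6, and help B cells in the follicle. In a bulk library a weak island from a few fully open cells and from many partly open cells cannot be told apart.

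RNA of the genes behind the gates followed the labels. Tbx21 measured 183 and 163 RPKM (reads scaled to transcript length and library size) in the 2 non-Tfh Tomato+ libraries, 106 and 53.0 RPKM in Tfh Tomato+, 10.4 and 10.5 RPKM in non-Tfh Tomato-, and 12.8 and 12.9 RPKM in Tfh Tomato-. The Tomato+ values lay above all Tomato- values, and those of non-Tfh Tomato+ cells above those of Tfh Tomato+ cells. Ifng stood at 240 and 296 RPKM in non-Tfh Tomato+ cells, 87.2 and 91.3 RPKM in Tfh Tomato+ cells, and at most 10.5 RPKM in the Tomato- libraries. Cxcr5, the follicle-homing receptor used in the gate, was lowest in non-Tfh Tomato+ cells (27.8 and 55.7 RPKM) and highest in the Tfh sorts, where it ranged from 258 to 394 RPKM. Pdcd1, the gene of PD1, ranged from 542 to 715 RPKM in the Tfh sorts. Unlike Cxcr5 it was not lowest in non-Tfh Tomato+ cells, at 133 and 183 RPKM against 89.9 and 132 RPKM in non-Tfh Tomato-. Bcl6 was 21.1 to 31.6 RPKM in the non-Tfh libraries and 95.2 to 139 RPKM in the Tfh libraries. The 4 CD4 T cell markers summed to between 1502 and 1887 RPKM in every library. The 4 macrophage and monocyte markers summed to 66.0 to 116 RPKM in non-Tfh Tomato+ libraries, 209 to 260 RPKM in Tfh Tomato+, 684 to 884 RPKM in Tfh Tomato- and 977 to 996 RPKM in non-Tfh Tomato-. Lyz2 made up most of each sum, at 105 and 63.9 RPKM in non-Tfh Tomato+ and 948 and 898 RPKM in non-Tfh Tomato-. Itgam was uneven between replicates, with 302 and 3 reads in non-Tfh Tomato+ and 78 and 498 in non-Tfh Tomato-. It had 3 and 31 reads in Tfh Tomato+ and 1 and 803 in Tfh Tomato-. The 4 B cell markers summed to 74.2 to 126 RPKM over all libraries, the 3 NK cell markers to 3.43 to 19.0 RPKM (no reads for Ncr1 in Tfh Tomato-) and the CD8 pair to 15.3 to 42.4 RPKM. The neutrophil pair differed widely between replicates of 1 sort. Its lower and higher sums were 0.742 and 79.6 RPKM in non-Tfh Tomato+ and 1.03 and 301 RPKM in non-Tfh Tomato-. They were 1.04 and 2.47 RPKM in Tfh Tomato+ and 9.91 and 396 RPKM in Tfh Tomato-. Whether such cells were also in the DNase sorts, and their part in which regions were open, was not tested.

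The DNase libraries were not equally rich in islands. Both non-Tfh Tomato+ libraries held more islands (20460 and 21222) than any other (14084 to 18742), with median island widths of 1800 and 1400 bp against 1800 to 2400 bp. Replicate 2 alone was narrower than all others, and replicate 1 equalled non-Tfh Tomato- replicate 1. The lowest deposited score also differed between libraries, at 39.5 and 32.5 in the non-Tfh Tomato+ libraries and 39.9 to 50.4 in the others. The files give no read totals, but the score of an island that is a single 200-bp window equalled the negative natural log of a Poisson probability for a whole number of reads, within 1.67e-06 in every library, for a mean that the scores fix. That mean, which scales with sequencing depth, was 2.50 and 1.55 reads per 200-bp window in the non-Tfh Tomato+ libraries and 1.44 to 3.20 in the other 6. By this mean the non-Tfh Tomato+ libraries lay within the range of the rest. The part of depth in the numbers of islands and private regions was not tested. A lone window needed 26 reads in replicate 1 and 19 reads in replicate 2 to reach the lowest score, or 10.4 and 12.2 times the mean, against 9.06 to 17.3 times in the others. For a library with a higher lowest score, absence of an island means only that the signal stayed below that level.

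With both libraries required, private regions were more numerous in non-Tfh Tomato+ cells than in any other group. The same rule found 282 regions private to Tfh Tomato- cells (1.09% of all regions), 34 private to non-Tfh Tomato- cells (0.132%) and 12 private to Tfh Tomato+ cells (0.0466%). Of the 16907 regions open in both non-Tfh Tomato+ libraries, 8.16% were private, against 1.93% of 14633 in Tfh Tomato-, 0.256% of 13259 in non-Tfh Tomato- and 0.0984% of 12193 in Tfh Tomato+ cells. The 2 replicates of a group shared 73.4% to 78.9% of the regions open in either, and the non-Tfh Tomato+ pair shared the most. When each library was reduced to its 14084 highest-scoring islands, the number of the smallest library, 507 regions were private to non-Tfh Tomato+ cells, against 102, 101 and 78 in the Tfh Tomato-, non-Tfh Tomato- and Tfh Tomato+ groups. With a single score floor of 50.4 in all libraries, chosen after seeing the data, the numbers were 825 against 137, 90 and 37. Scores depend on the mean reads per window of each library, so that floor stands for a different number of reads in each. It does not make the libraries equally sensitive. Only 323 and 643 of the 1380 regions were among those found with these 2 settings. The rest of the 507 and the 825 lay, with all islands used, in merged regions that also held an island of another library. Such an island may have fallen below the limit or no longer been joined to the region. These cases were not counted separately. Dropping replicate 1 of non-Tfh Tomato+ cells left 2634 regions in replicate 2 alone, and dropping replicate 2 left 2105 in replicate 1 alone. Leaving out any library of the other groups gave 1435 to 1811. The counts of the other groups also rose where 1 of their own libraries was left out, since a region then needs only 1 island. Tfh Tomato- cells had 770 without replicate 1 and 1460 without replicate 2, the latter beside 1471 for non-Tfh Tomato+ cells. Non-Tfh Tomato- cells had 137 and 597, and Tfh Tomato+ cells 156 and 153, without replicate 1 and replicate 2. The 1460 and the 1471 are close but follow unlike rules, since the first needs 1 library of its group and the second needs both. With 1 own library left out in each group, non-Tfh Tomato+ cells had 2634 and 2105 and Tfh Tomato- cells 770 and 1460.

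**Figure D1:**
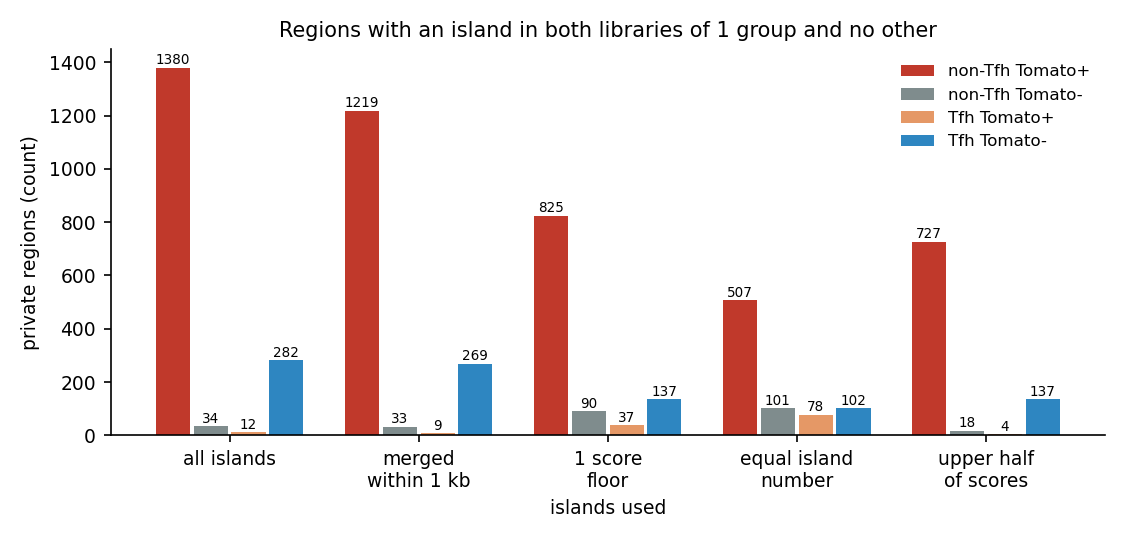
Number of merged regions with an island in both libraries of 1 group and in no other library (y axis, count) for the 4 sorted groups, with 5 choices of islands (x axis). Non-Tfh Tomato+ cells have 1380 with all islands and 507 with equal island numbers, above the other groups in all 5 choices.

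Few of the 25755 merged regions were open in the 2 Tomato+ groups alone. Regions open in both libraries of both Tomato+ groups and in no Tomato- library numbered 35. Regions shared in the same way by non-Tfh Tomato+ and non-Tfh Tomato- cells numbered 130, and those shared by non-Tfh Tomato+ and Tfh Tomato- cells 66. The Tfh Tomato+ libraries held 14084 and 15374 islands, with lowest scores of 48.0 and 50.4, and weaker signal there gives no island. How far this set the count of 35 was not tested. Of 3103 regions with islands in exactly 2 libraries, 1380 belonged to the non-Tfh Tomato+ pair, 282 to the Tfh Tomato- pair and at most 177 to any other pair.

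Regions just outside the rule were most often shared with a single library, non-Tfh Tomato- replicate 1. Those open in both non-Tfh Tomato+ libraries and in exactly 1 more library numbered 893. In 417 of them (46.7%) the added library was non-Tfh Tomato- replicate 1, in 154 Tfh Tomato- replicate 1, in 128 Tfh Tomato+ replicate 2, in 86 Tfh Tomato- replicate 2, in 69 non-Tfh Tomato- replicate 2 and in 39 Tfh Tomato+ replicate 1. Replicate 2 of the same sort, with 69, lay below 3 of the 4 Tfh libraries, and the 2 non-Tfh Tomato- replicates held 18061 and 14980 islands in all. The added island was weak, with a median score percentile of 9.67 to 16.5 within its own library, where the highest-scoring island of a library has percentile 100. A further 703 regions were open only in non-Tfh Tomato+ replicate 1 and 1201 only in replicate 2, at median percentiles of 8.74 and 11.8.

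The private regions were mostly short and of modest score. Their median width was 1400 bp (quartiles 1000 and 2000 bp), from 2 regions of a single window to a region of 6000 bp. Regions open in all 8 libraries had a median of 3800 bp, but a region joins the islands of all its libraries. The 2 widths are therefore not like for like. Within single libraries, islands of private regions had median widths of 1200 and 1000 bp in replicates 1 and 2. All islands of these libraries had medians of 1800 and 1400 bp. In 1364 of the 1380 each library held a single island. Both libraries gave identical ends in 153 regions (11.1%), and the stretch common to both covered a median of 57.1% of a region. The island was wider in replicate 1 in 775 regions and wider in replicate 2 in 393. Islands of private regions made up 6.76% of the islands of replicate 1 and 6.57% of those of replicate 2, with median scores of 59.0 and 54.3 and highest scores of 257 and 259. Their median percentiles within the libraries were 23.0 and 28.9.

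Taking the lower of the 2 percentiles for each region, 411 private regions (29.8%) were below 10, 481 between 10 and 25, 416 between 25 and 50, and 72 (5.22%) at 50 or more, which is above the median island of both libraries. That lower percentile had a median of 17.8 in private regions and climbed with the number of other libraries that also held an island, to 20.3 with 1, 22.4 with 2, 24.1 with 3, 25.6 with 4, 33.2 with 5 and 69.0 with all 6. Width climbed alongside, from 1400 bp to 2200, 2400, 2800, 3000, 3400 and 3800 bp. That climb in width is partly built in, since a region spans the islands of every library that holds one. Private regions thus differed little in rank from regions with 1 to 4 further libraries, and strongly from those open everywhere. Across the 1380 regions the percentiles of the 2 replicates correlated with a Spearman rho of 0.51 (Pearson r 0.57), a description over regions of the same 2 libraries. Across the 10598 regions open in all 8 libraries rho was 0.91.

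**Figure D2:**
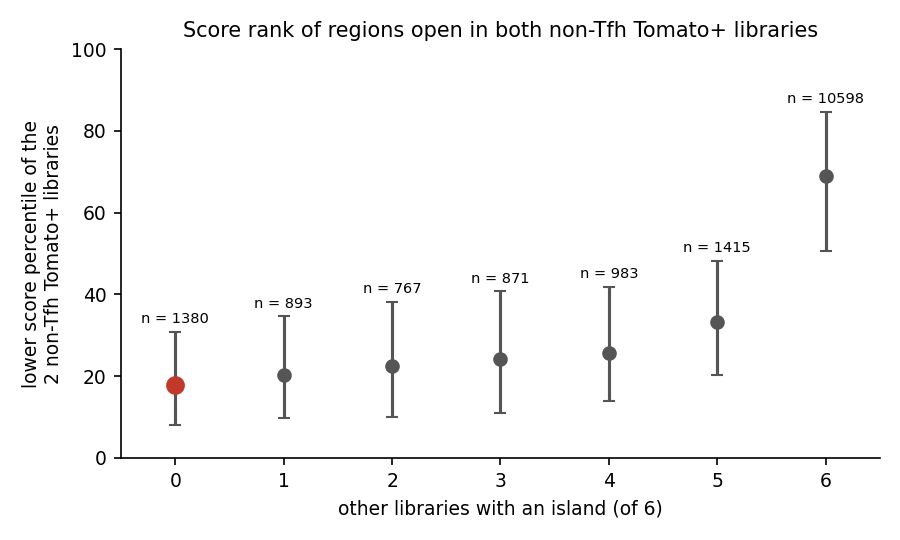
Lower of the 2 score percentiles in the non-Tfh Tomato+ libraries (y axis, median as a point, quartiles as bars) for regions open in both, by the number of the other 6 libraries that also hold an island (x axis). Private regions (0 others, red) have a median of 17.8 and regions open in all libraries 69.0.

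**Figure D3:**
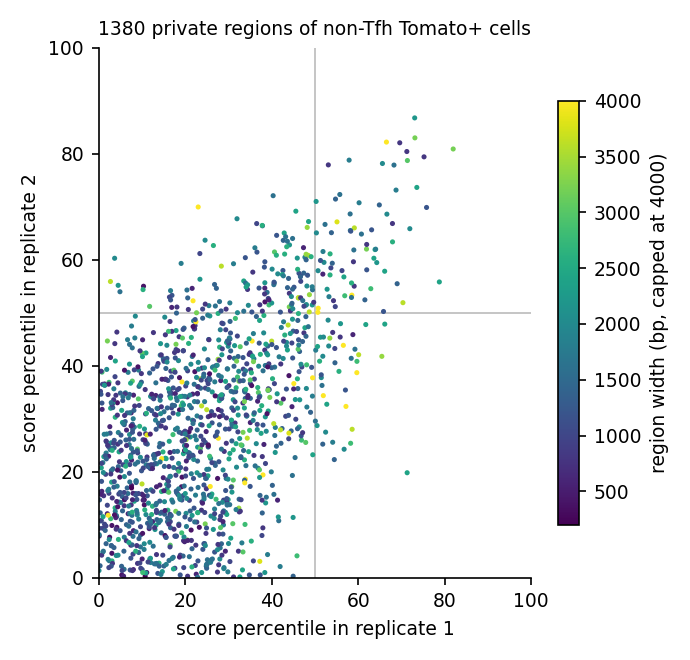
Score percentile within non-Tfh Tomato+ replicate 1 (x axis) and replicate 2 (y axis) of each of the 1380 private regions, coloured by width in bp, with grey lines at the median island of each library. Most points lie below both lines, at the lower left, and 72 regions lie above both medians.

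The strongest private regions ranked with the upper part of all islands in both libraries. chr5:53784401-53787600, 3200 bp wide, scored 257 in replicate 1 and 206 in replicate 2, at percentiles 82.0 and 80.9. A region open in all 8 libraries lay 2.2 kb away from it. chr3:52731201-52732000, only 800 bp wide, scored 208 and 196 (percentiles 75.2 and 79.4). chr4:57318401-57320800 scored 198 and 164, also beside a region of all 8 libraries, 1.8 kb away, while the next private region was 1701 kb away. chr9:123744401-123747600 scored 196 and 223, with another private region 1.2 kb away. The highest score of any private island, 259, was that of chr1:155146601-155148800 in replicate 2. That region had 196 in replicate 1, was 112 kb from the nearest region of all 8 libraries, and had another private region 1.8 kb away.

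The other 5 of the 10 strongest were chr2:167187801-167190800 (scores 187 and 192), chr11:46280001-46280800 (187 and 203), chr11:106425601-106426800 (212 and 146), chr7:73378001-73378800 (178 and 214) and chr3:107630001-107631800 (174 and 161). Each of the 10 was above the median island of both libraries, as the choice by score fixes. With islands up to 1 kb apart treated as a single region 8 of the 10 were still private, and with 5 kb 4 of the 10. The 3 widest private regions ranked lower. chr3:60275201-60281200 was 6000 bp wide and scored 59.0 in replicate 1 against 147 in replicate 2, at percentiles 23.0 and 70.0. The next, chr6:83667001-83672200 and chr7:87564001-87569200, were both 5200 bp wide and lay 0.6 and 0.4 kb from the nearest region that is not private.

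At the lower end the signal rested on few reads. Among islands of private regions that were a single window, 11 in replicate 1 held 26 to 32 reads and 16 in replicate 2 held 19 to 30 reads, recovered from their scores, or 10.4 to 12.8 and 12.2 to 19.3 times the mean of the library.

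Some private regions lay in clusters, and most lay alone. For 514 of 1380 (37.3% of 1379 with another on their chromosome) the nearest other private region was within 50 kb, and for 37 within 1 kb. The median gap was 114 kb. Of the 282 regions private to Tfh Tomato- cells, 12 (4.26%) had another within 50 kb. The 2 sets differ in number, and the difference in spacing was not tested. Joining private regions at most 50 kb apart gave 158 pairs, 36 groups of 3, 12 of 4, 7 of 5 and 1 of 7, with 866 regions alone.

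The cluster of 7 spanned 135 kb at chr10:117843201-117978600. Ifng lies on mouse chromosome 10, but gene positions on mm9 were not used here, so no private region is assigned to a gene. The widest of the 7, chr10:117877001-117881400, covered 4400 bp and scored 133 in replicate 1 and 95.7 in replicate 2, at percentiles 58.5 and 53.3. Its neighbour 3.4 kb away, chr10:117871601-117873600, scored 64.4 and 68.9. chr10:117931201-117933400 scored 58.9 and 49.6, and chr10:117978201-117978600, 400 bp wide, scored 62.3 and 66.5. The remaining 3 were near the lowest score of at least 1 library. Both chr10:117843201-117844400 and chr10:117923601-117924800 had a score of 32.6 in replicate 2, at percentile 0.542, beside 80.3 and 76.2 in replicate 1, and chr10:117913801-117915200 scored 42.4 and 46.3. With equal island numbers 1 of the 7 was still found, and with the single score floor 3.

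Between these private regions lay 5 others. chr10:117855401-117858800 was open in all 8 libraries, at percentiles 72.6 and 85.7 in non-Tfh Tomato+, 79.6 and 67.5 in non-Tfh Tomato-, 39.0 and 56.7 in Tfh Tomato-, and 20.2 in both Tfh Tomato+ libraries. chr10:117895001-117899000 and chr10:117903601-117909600 were open in 7 libraries, all but Tfh Tomato- replicate 1. The latter stood at percentiles 71.1 and 78.9 in non-Tfh Tomato+ cells, 15.0 and 39.9 in Tfh Tomato+, 13.3 and 12.7 in non-Tfh Tomato- and 3.15 in Tfh Tomato- replicate 2. In the 7-library regions the non-Tfh Tomato+ libraries ranked above every other library that held an island.

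**Figure D4:**
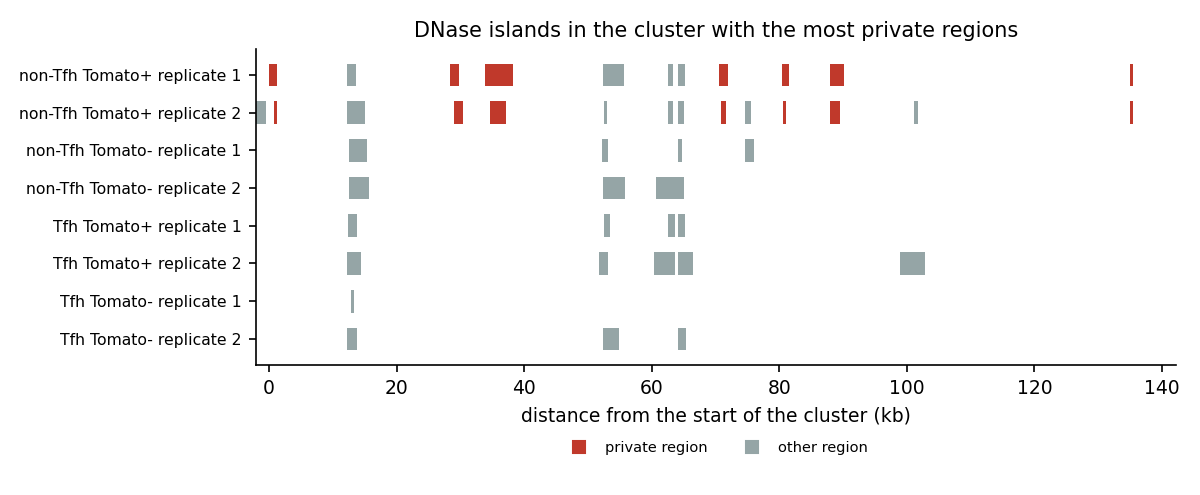
Islands of the 8 DNase libraries (rows) across the cluster of 7 private regions, as distance in kb from its start (x axis), with islands of private regions in red and of other regions in grey. Red islands appear in the 2 non-Tfh Tomato+ rows, and a region at 12.2 kb has an island in all 8 rows.

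Chromosome 9 held 3 of the 7 clusters of 5. The cluster at chr9:119156801-119181600 packed 5 private regions into 24.8 kb, with no other region between them and the nearest one 48.2 kb away, at lower percentiles of 0.758 to 22.8. chr9:123720201-123754600 had 5 in 34.4 kb, among them the strong chr9:123744401-123747600 and chr9:123726801-123730200, which scored 104 and 132. The third, chr9:124013801-124062000, had 5 in 48.2 kb with no other region between, the strongest being chr9:124060001-124062000 at 85.6 and 108.

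The most evenly strong cluster was chr19:53469001-53509600, where 5 private regions in 40.6 kb had lower percentiles of 28.6 to 66.5. Within it chr19:53481801-53485800 scored 164 and 216 and chr19:53478601-53481000, 0.8 kb away, 127 and 104. The cluster chr7:73291601-73395400 included chr7:73340401-73344200 (123 and 136) beside the strong chr7:73378001-73378800. Weaker were chr14:121713601-121816600, where 7 of 8 intervening regions were also open in both non-Tfh Tomato+ libraries, and chr2:44872801-44995200, with lower percentiles of 1.16 to 15.7 and no region of all 8 libraries between its members.

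Most private regions had other accessible chromatin within 10 kb. These distances were not computed over all merged regions, so whether private regions lie closer than usual was not tested. The nearest region that is not private lay within 1 kb of 166 private regions, within 10 kb of 874 (63.3%) and within 50 kb of 1295 (93.8%), with a median gap of 6.2 kb. Regions open in all 8 libraries are a subset of the regions that are not private, so they can only be as near or farther. Their median gap was 20.7 kb. For regions private to Tfh Tomato- cells the corresponding medians were 11.9 and 45.7 kb. Of the 6 other libraries, non-Tfh Tomato- replicate 1 had an island within 10 kb of the most private regions (668) and Tfh Tomato+ replicate 1 of the fewest (556). Treating islands up to 1 kb apart as a single region left 1219 private regions, and up to 5 kb apart 778.

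Regions open in all 8 libraries ranked higher in non-Tfh Tomato+ cells when a private region was near. Ranking the 10598 shared regions by score within each library, the 326 that lay 2 to 10 kb from a private region had a median rank percentile of 61.4 and 62.7 in the non-Tfh Tomato+ libraries. The same 326 regions stood at 54.9 and 51.9 in non-Tfh Tomato-, 51.8 and 57.0 in Tfh Tomato+, and 44.9 and 49.6 in Tfh Tomato- libraries. Both non-Tfh Tomato+ values lay above the other 6. For the 171 shared regions within 2 kb the values were 58.1 and 60.7 in non-Tfh Tomato+ cells and 36.4 to 50.6 in the others, or 57.4 and 60.1 against 39.5 to 50.8 when the scores of split islands were added up. At 10 to 50 kb (1109 regions) they were 53.7 and 55.3 against 46.2 to 50.7. At 50 to 200 kb all 8 libraries lay between 48.7 and 49.7. Beyond 200 kb the non-Tfh Tomato+ libraries, at 48.6 and 48.2, were below the other 6 (49.9 to 51.8). Ranks are relative within each library, so higher ranks near private regions bring lower ranks elsewhere. The lower ranks beyond 200 kb are therefore no separate observation. These ranks come from the libraries that chose the private regions, so they are given with no test.

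**Figure D5:**
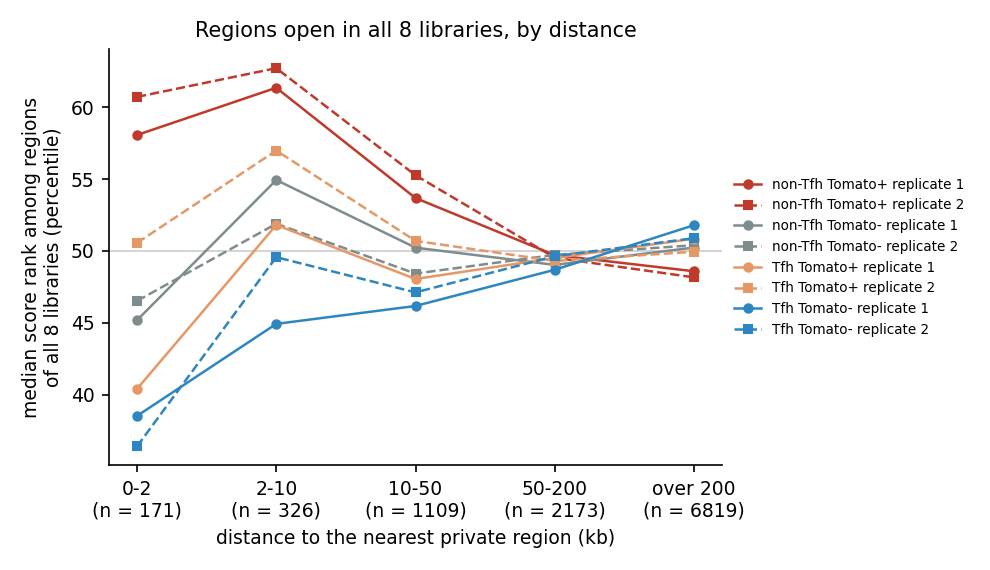
Median score rank (y axis, percentile among the 10598 regions open in all 8 libraries) in each library, by distance in kb to the nearest region private to non-Tfh Tomato+ cells (x axis, number of regions below). The 2 red lines, non-Tfh Tomato+ cells, are the highest up to 50 kb and meet the others at 50 to 200 kb.

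Regions open in some but not all libraries, with the private regions left out, were also split by distance. Among the 534 such regions 2 to 10 kb from a private region, 64.4% and 72.7% held an island in the non-Tfh Tomato+ libraries, 45.3% and 30.0% in non-Tfh Tomato-, 21.2% and 31.5% in Tfh Tomato+ and 38.0% and 37.8% in Tfh Tomato- libraries. Among the 8492 farther than 200 kb the shares were 46.0% and 49.3% in non-Tfh Tomato+, 46.4% and 27.2% in non-Tfh Tomato-, 22.2% and 29.7% in Tfh Tomato+, and 55.5% and 45.9% in Tfh Tomato- libraries. The shares in the Tfh Tomato+ libraries thus changed by little with distance, while those in non-Tfh Tomato+ libraries were higher near private regions and those in Tfh Tomato- libraries lower. These shares, too, come from the libraries that chose the private regions, so they are given with no test. This class of regions still holds the 282 private to Tfh Tomato- cells, which add to the Tfh Tomato- shares only.

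Around the 282 regions private to Tfh Tomato- cells the order of the libraries was different. The 244 shared regions within 50 kb of them had median ranks of 46.2 to 48.8 in Tfh Tomato+ libraries and Tfh Tomato- replicate 1, a higher one in Tfh Tomato- replicate 2, and 43.6 to 45.8 in the 4 non-Tfh libraries. The 1606 shared regions within 50 kb of a region private to non-Tfh Tomato+ cells had 55.8 and 57.4 in the latter and 44.4 to 52.0 elsewhere.

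All chromosomes with islands held private regions. On the autosomes and X the share of merged regions that were private ran from 4.13% on chromosome 12 (43 of 1042) to 7.42% on chromosome 19 (59 of 795), beside 5.36% over all chromosomes. Chromosome 1 had the most private regions (117, 6.79%), and chromosome 10 had 97 (6.52%). The X chromosome had 25 (5.67%), and chromosome Y, with 9 merged regions, had 1.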

How the data were processed

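DNase accessibility was measured in 8 libraries of sorted lymph node CD4 T cells and polyadenylated RNA in 8 further libraries, 2 per group, grouped by sample title. The submitters' processing notes list CASAVA 2.18, Bowtie2, SICER 1.1, edgeR and build mm9, without roles. The names of the deposited files give noDup, W200, G400 and E1, read here as duplicates removed, windows of 200 bp, gaps up to 400 bp and E-value 1, per library. Alignment settings are not given in the sources used here. Each deposited island has a score, used here as a rank within its library, except for the single score floor, which compares raw scores between libraries. The authors' RPKM and read counts per RefSeq transcript were used as deposited, taking the transcript row with the most reads for each gene symbol. RNA counts over genes totalled 13169625 to 20225695. They served only to check the gates, and the 4 spleen libraries were not used.

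Islands that overlap or touch were merged with Python 3.11.15 and pandas 2.3.3, and positions are 1-based. A region's score in a library is that of its highest island. Distances are gaps between region ends. The mean reads per window were solved from scores of single-window islands (scipy 1.17.1). Merging and this solution were checked on simulated data. Named are the 10 regions with the highest lower percentile, the 3 widest, and regions within 50 kb of another. From the last, only clusters of at least 5 are described, a limit set after seeing the data, as were the other distance limits and the regions that are not private. The regions and rules were chosen with earlier results of these data known. A genome and gene positions of build mm9 were not used, so the planned RNA test of nearby genes and the planned motif counts were not run. Without a test across features, no p-value is given.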

Additional observations from a re-analysis of the deposited data

How the results depend on the processing

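With islands at or above the median score of their own library, 727 regions were private to non-Tfh Tomato+ cells, with a median width of 2000 bp, and 72 of the 1380 were among them. With equal island numbers there were 507 of 1800 bp, with the single score floor 825 of 1600 bp, and with islands up to 5 kb apart merged 778 of 1600 bp. Each of these settings leaves fewer islands or regions by construction. Non-Tfh Tomato- cells, with 34, had 18, 101 and 90 with the median, equal-number and floor settings, and 35 to 597 with 1 library left out, the highest without their own replicate 2. Leaving out 1 library gave 1435 to 2634 regions and median widths of 1000 to 1400 bp, with the highest counts where a non-Tfh Tomato+ library was left out, since a region then needs only 1 island. Without Tfh Tomato- replicate 2 that group had 1460 private regions by its other library alone, beside 1471 for non-Tfh Tomato+ cells by both. Merging within 1 kb (1219) and leaving out chromosome Y (1379) moved the count by less than 1.5 times. No paired analysis was possible because the results come from no test. The RNA test and the motif counts, with their other settings, were not run, since gene positions and sequence on mm9 were not used. Scores set what can be seen here: signal below the lowest score of a library, 32.5 to 50.4, gives no island.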
